A study of Mus musculus with 10 samples.

Results

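The genes described here are 10 mouse genes known as feedback inhibitors or outputs of the ERK pathway: Spry1, Spry2, Spry4, Dusp4, Dusp6, Etv4, Etv5, Phlda1, Errfi1 and Fosl1. They were chosen by name, and each was followed through every probe set (the probes that together report 1 transcript) carrying its symbol alone. Of the 10 genes, 9 had 14 such probe sets between them, among 12393 genes measured in this way. Dusp4 stood alone on no probe set and is not analysed here. Probe sets were kept if 2 or more arrays read above 4 on the log2 scale, and 13 member probe sets of all 9 genes remained after this filter, out of 14012 probe sets and 8599 genes.

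The samples were 5 groups of 2 arrays each, named replicates a and b. The iPSC in 2i were induced pluripotent stem cells kept in 2i with serum. The day 32 cells were secondary mouse embryonic fibroblasts (MEF) that had expressed the Yamanaka reprogramming factors for 32 days, and they were not sorted. The Sox2-positive and Sox2-negative fractions were parts of such day 32 cells, and the series title names RNA FACS, a sort of cells by their RNA. The iPSC with MEF were induced pluripotent stem cells cultured together with fibroblasts. All groups are described as kept in mouse embryonic stem cell medium apart from these differences. The labels name no strain, clone, transgene promoter, inhibitor, dose or time in 2i, and they do not say whether 2 replicates came from separate cultures, so each p-value measures only the spread between these arrays. The labels call the cell type of every array iPSC. All 10 pluripotency markers exceeded 4 on an array of each group except in the Sox2-negative fraction, where Zfp42 and Utf1 did not. These are bulk samples, in which fewer cells of a type and less RNA per cell cannot be told apart.

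ERK is the last kinase of the chain that runs from growth factor receptors through RAS, RAF and MEK. Active ERK switches on genes that carry its output, such as ETS and AP-1 transcription factors, and genes that dampen the chain in turn, such as the Sprouty proteins and the dual-specificity phosphatases. In mouse pluripotent cells FGF4 feeds this chain and favours exit from the naive state. The medium supplement 2i is known as a MEK inhibitor combined with a GSK3 inhibitor, so it blocks ERK activation and stabilises beta-catenin. For that reason Spry4, Dusp6, Etv4 and Etv5 are commonly read as reporters of ERK activity in these cells.

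The arrays fell into 2 classes, with both arrays of each group in the same class, and this bears on every value below. The iPSC in 2i and the day 32 cells, 4 arrays, had log2 values of 5.25 to 6.55 for 18S ribosomal RNA. The other 6 arrays had 11.35 to 13.22. The low-18S arrays also had a wider gap between the Actb control probe sets at the end and at the start of the transcript, 2.70 to 3.88 against 0.05 to 1.12, and a higher median over all probe sets, 5.28 to 5.36 against 4.27 to 4.33. The high-18S class was not uniform in this gap, at 1.12 and 1.08 on the arrays of iPSC with MEF and 0.05 to 0.21 on the sorted arrays. The labels name 2 amplification kits without saying which sample had which, so the kit, the class and the sample history cannot be told apart. The iPSC in 2i share a class with the day 32 cells, whereas the iPSC with MEF share one with both sorted fractions. No comparison within a class has iPSC on both sides. Of the comparisons made, 3 therefore bear on 2i. The first is iPSC in 2i minus day 32 cells, inside the low-18S class. The second is iPSC in 2i minus iPSC with MEF, across classes. The third subtracts from the second the difference between day 32 cells and the equal mean of their 2 fractions, which also crosses the classes. It assumes that unsorted cells would read like the mean of their fractions and that the class shifts both kinds of cells alike. That mean was taken of log2 values, whereas the RNA of mixed cells adds on the linear scale. Where the fractions differ widely, an equal mixture would therefore read above this mean, which makes the net value lower. All 3 use the same iPSC 2i arrays. Differences are log2, a call is an adjusted p under 0.05 from limma over 14012 probe sets, and a gene is represented by its brightest kept probe set.

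**Figure D1:**
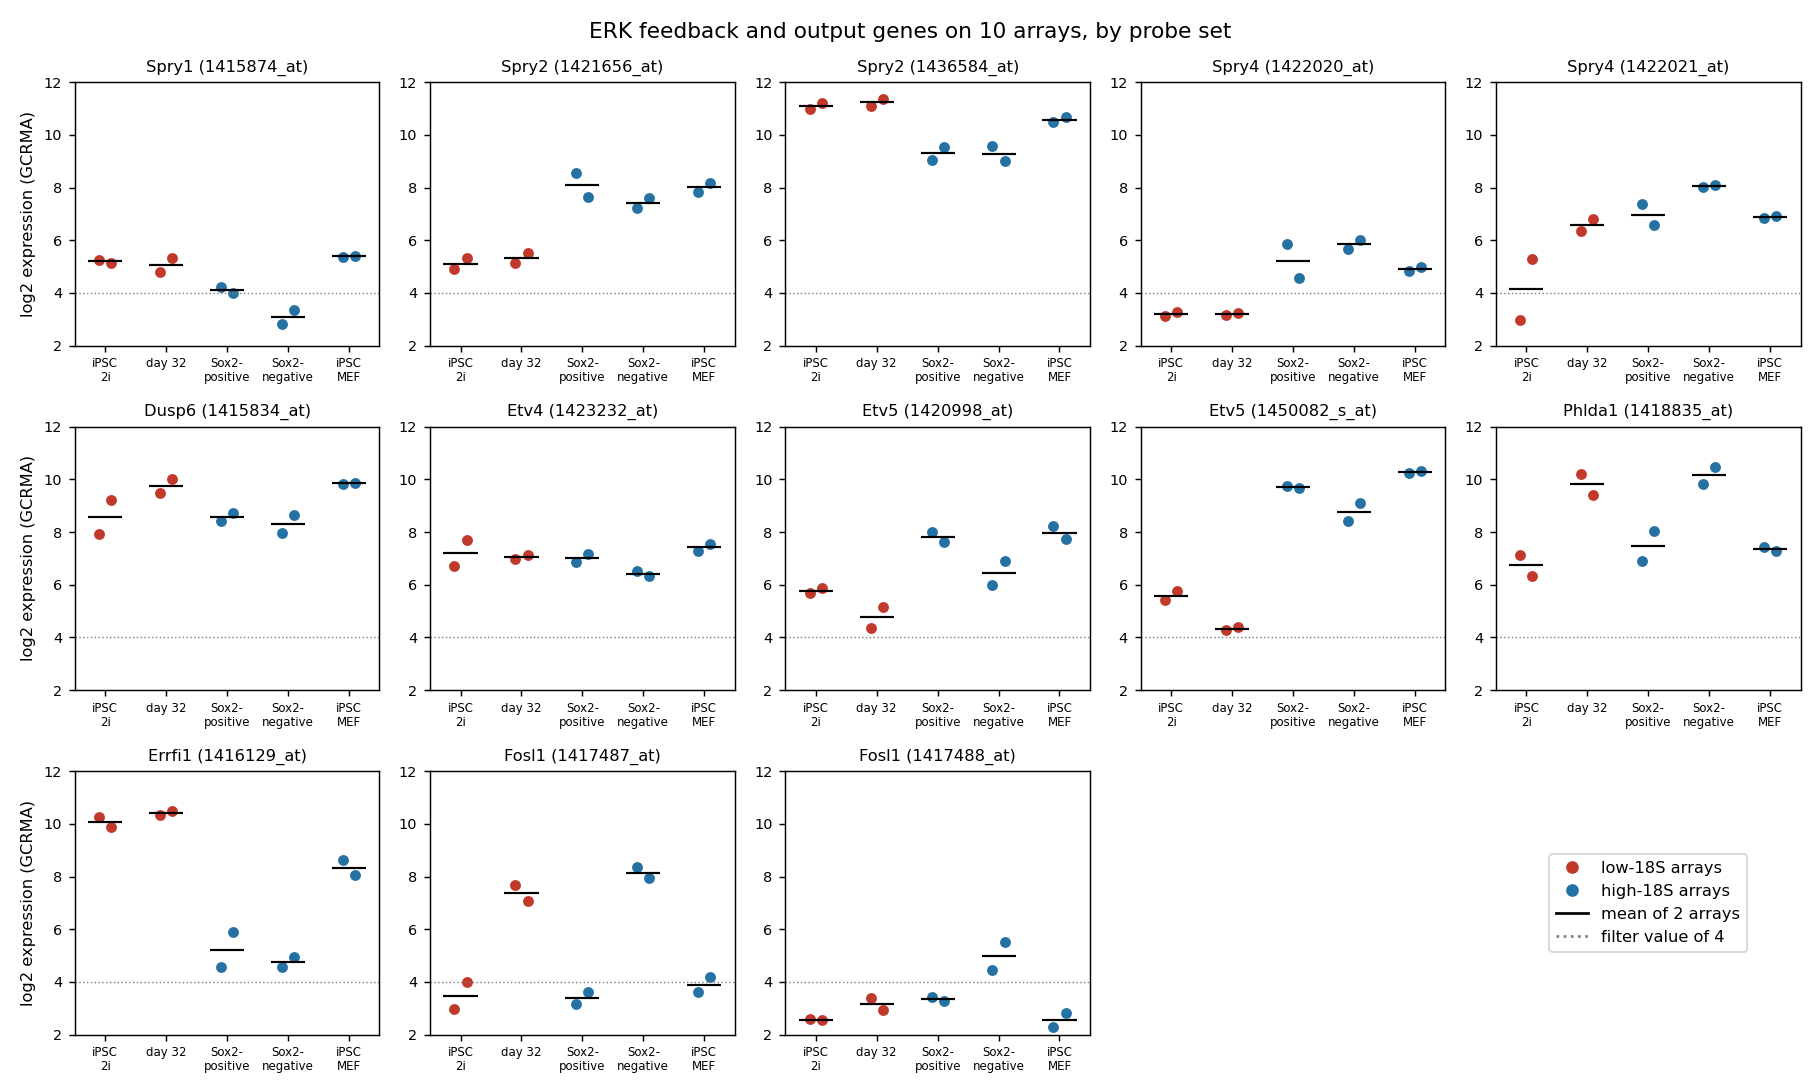
Log2 GCRMA expression (vertical axis) of the 13 kept member probe sets in each of the 5 groups (horizontal axis). Points are arrays, red for the low-18S class and blue for the high-18S class, lines are means of 2 arrays, and the dotted line is the filter value of 4; Spry4 1422021_at is lowest in iPSC in 2i, both Etv5 probe sets follow the array class, and Fosl1 1417487_at and Phlda1 are high in day 32 and Sox2-negative cells.

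Within the low-18S class, 3 of the 9 genes differed between iPSC in 2i and day 32 cells, against 7.26% of all genes called in this comparison. Fosl1 and Phlda1 were lower in iPSC in 2i, a direction called for 5.04% of genes, and Etv5 was higher, a direction called for 2.22%. Spry4, Dusp6 and Errfi1 were also lower on both iPSC 2i arrays than on both day 32 arrays without passing the test, and Spry1, Spry2 and Etv4 overlapped between the groups. The median difference of the 9 genes was -0.36, beside 0.11 over all genes. Of the 13 probe sets, 6 lay lower on both iPSC 2i arrays than on both day 32 arrays, a pattern found in 23.8% of all probe sets.

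Spry4, a Sprouty inhibitor of receptor-to-RAS signalling, was the member with the lowest values in 2i relative to all other groups. Its brighter probe set, 1422021_at, read 2.98 and 5.30 in iPSC in 2i, against 6.34 and 6.80 in day 32 cells. It read 7.37 and 6.57 in the Sox2-positive fraction, 8.04 and 8.11 in the Sox2-negative fraction, and 6.85 and 6.92 in iPSC with MEF. Both iPSC 2i arrays thus lay below all 8 others, which no other member probe set did and which 1.96% of all probe sets did. The difference from day 32 cells was -2.43 with a standard error (SE) of 0.62, and limma gave an adjusted p of 0.0521, just above the threshold of 0.05. The 2 iPSC 2i arrays themselves differed by 2.32, where the median probe set differed by 0.25 between them. Without replicate b of iPSC in 2i the difference was -3.59 (adjusted p = 0.00696, limma), and without replicate a it was -1.27 (adjusted p = 0.154). With all arrays kept, the adjusted p from limma was 0.0480 with the replicate letter as a block and 0.0482 over genes by their brightest probe set. It was 0.0303 with array weights and 0.0444 with an intensity trend. Spry4 stayed uncalled with the other filters, quantile normalization, median centring, gene means and these groups alone. Against iPSC with MEF, across classes, Spry4 1422021_at was lower by a log2 difference of -2.75 (SE 0.62, adjusted p = 0.00430), and net of the array class the difference was -1.79 (adjusted p = 0.168).

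The second Spry4 probe set gave another order. Probe set 1422020_at read 3.12 and 3.28 in iPSC in 2i, against 3.15 and 3.24 in day 32 cells, all under the filter value. On the 6 arrays of the other class it read 4.55 to 6.02. It was thus lower across classes, at -1.71 between iPSC in 2i and iPSC with MEF (adjusted p = 0.00422, limma), at least 1.88-fold lower when iPSC in 2i are set to 4, and the day 32 cells were as far below their fractions, at -2.33. Within the low-18S class it could not show a fall, since both groups lay below 4.

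Dusp6 encodes a phosphatase that removes the activating phosphates of ERK, and its expression rises with ERK activity. It read 7.92 and 9.23 in iPSC in 2i, against 9.47 and 10.01 in day 32 cells. The Sox2-positive fraction had 8.41 and 8.74, the Sox2-negative fraction 7.98 and 8.64, and iPSC with MEF 9.84 and 9.87. Both iPSC 2i arrays lay below those of day 32 cells and of iPSC with MEF and overlapped those of the fractions. Of all probe sets, 3.78% lay below both of these groups in the same way, and among members Spry4 1422021_at, Dusp6 and Phlda1 did.

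The Dusp6 difference was -1.17 from day 32 cells (SE 0.43, adjusted p = 0.143, limma) and -1.28 from iPSC with MEF (adjusted p = 0.0277). Net of the array class it was -2.58 (SE 0.57, adjusted p = 0.0276), where day 32 cells read 1.30 above the mean of their fractions. The call against iPSC with MEF was lost without replicate a of iPSC in 2i (-0.63, adjusted p = 0.229), without replicate a of iPSC with MEF (adjusted p = 0.0945) and without its replicate b (adjusted p = 0.103).

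The start region of Dusp6 is shown because ETS factors, the family of Etv4 and Etv5, bind a GGAA core, and here each copy of GGAA or its reverse complement TTCC stands in capitals. The RefSeq window on build GRCm38.p6 is chr10:99262981-99263280 on the plus strand, from 250 bases before to 50 after the annotated start, written 5′ to 3′.
Dusp6: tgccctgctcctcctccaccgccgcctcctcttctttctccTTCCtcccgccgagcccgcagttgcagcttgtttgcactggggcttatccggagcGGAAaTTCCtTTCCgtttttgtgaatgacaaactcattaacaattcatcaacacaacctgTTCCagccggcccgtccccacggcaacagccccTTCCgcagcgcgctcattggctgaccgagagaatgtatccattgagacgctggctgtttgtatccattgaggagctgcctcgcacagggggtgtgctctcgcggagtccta
It holds 6 such matches. Of 32851 promoter windows of this length, 96.0% hold at least 1, so the presence of the core does not set Dusp6 apart. How many windows hold 6 or more was not counted. Promoter windows were found for 5 members, Spry1, Spry2, Dusp6, Etv5 and Errfi1, 7 windows in all. The longer motifs searched on both strands were CCGGAAG for ETS factors, TGANTCA for AP-1 and the CArG box, the core of the serum response element. None of the 7 windows held any of the 3, which 8.86%, 7.81% and 1.63% of all windows held. The CCGGAAG motif contains the GGAA core. No binding was measured in these samples.

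Spry2, a second Sprouty inhibitor, moved in opposite directions on its 2 probe sets. Probe set 1436584_at read 10.97 and 11.23 in iPSC in 2i, against 11.11 and 11.37 in day 32 cells. The Sox2-positive fraction had 9.06 and 9.55, the Sox2-negative fraction 9.57 and 9.02, and iPSC with MEF 10.48 and 10.69. Probe set 1421656_at read 4.91 and 5.31 in iPSC in 2i and 5.13 and 5.52 in day 32 cells, against 7.21 to 8.54 on the 6 high-18S arrays. The low-18S arrays were thus the 4 highest on 1436584_at, as on 44.8% of all probe sets. They were the 4 lowest on 1421656_at, as on 7.46% of all probe sets.

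The gap between the Spry2 probe sets was 5.95 ± 0.09 on the low-18S arrays (SD, n = 4) and 1.89 ± 0.81 on the high-18S arrays (SD, n = 6). Between iPSC in 2i and day 32 cells both probe sets differed little, with 95% intervals of -0.81 to 0.53 for 1436584_at and -1.0 to 0.57 for 1421656_at. Between iPSC in 2i and iPSC with MEF they gave 0.52 (adjusted p = 0.155, limma) and -2.91 (adjusted p = 1.69e-04), so the sign of Spry2 in that comparison depended on the probe set.

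Spry1, another member of the Sprouty family, read 5.27 and 5.15 in iPSC in 2i, against 4.79 and 5.34 in day 32 cells. The Sox2-positive fraction had 4.21 and 3.99, the Sox2-negative fraction 2.82 and 3.34, and iPSC with MEF 5.36 and 5.42. Its difference was 0.15 from day 32 cells (95% interval -0.50 to 0.79) and -0.18 from iPSC with MEF (95% interval -0.83 to 0.47), so neither comparison called it. Its lowest values were those of the Sox2-negative fraction, both under 4.

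Errfi1 encodes an inhibitor that binds the kinase domain of the EGF receptor family. Its kept probe set 1416129_at read 10.25 and 9.89 in iPSC in 2i, against 10.35 and 10.51 in day 32 cells. It read 4.56 and 5.88 in the Sox2-positive fraction, 4.56 and 4.96 in the Sox2-negative fraction, and 8.62 and 8.05 in iPSC with MEF. Errfi1 was therefore high on all 4 low-18S arrays, as 44.8% of probe sets were, and also high in iPSC with MEF compared with the fractions of the same class. The second probe set, 1419816_s_at, stayed at 2.50 to 3.47 on all arrays and did not pass the filter.

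Between iPSC in 2i and day 32 cells Errfi1 differed by -0.36 (SE 0.42, adjusted p = 0.658, limma). Across classes it was higher in iPSC in 2i than in iPSC with MEF by 1.74 (SE 0.42, adjusted p = 0.00607), beside a median of 1.01 over all genes. That call was lost without replicate b of iPSC with MEF (1.45, adjusted p = 0.0540).

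Etv4 and Etv5 are ETS transcription factors that FGF signalling is known to induce. Etv4 read 6.72 and 7.71 in iPSC in 2i, against 6.99 and 7.15 in day 32 cells. It read 6.87 and 7.17 in the Sox2-positive fraction, 6.52 and 6.33 in the Sox2-negative fraction, and 7.29 and 7.56 in iPSC with MEF. Etv4 thus spanned a narrow range, and the 2 iPSC 2i arrays alone covered most of it. The difference of iPSC in 2i was 0.15 from day 32 cells (95% interval -0.61 to 0.90) and -0.21 from iPSC with MEF (95% interval -0.97 to 0.55).

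Etv5 followed the array class. Probe set 1450082_s_at read 5.43 and 5.75 in iPSC in 2i, against 4.30 and 4.38 in day 32 cells. It read 9.76 and 9.68 in the Sox2-positive fraction, 8.44 and 9.09 in the Sox2-negative fraction, and 10.24 and 10.32 in iPSC with MEF. Probe set 1420998_at read 5.68 and 5.87 in iPSC in 2i and 4.35 and 5.17 in day 32 cells, against 5.99 to 8.23 on the other 6 arrays. All 4 low-18S arrays lay below the other 6 on both probe sets, as 7.46% of all probe sets did.

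Etv5 gave the largest difference of any member between iPSC in 2i and iPSC with MEF, -4.69 for 1450082_s_at (SE 0.28, adjusted p = 1.16e-05, limma). The day 32 cells, however, lay below the mean of their fractions by a log2 difference of -4.90 with the same probe set. Net of the array class the difference was 0.21, with a 95% interval of -0.62 to 1.04. Within the low-18S class Etv5 was higher in iPSC in 2i by 1.25 (SE 0.28, adjusted p = 0.0338), and 1420998_at gave 1.02 (adjusted p = 0.157). The call of 1450082_s_at was lost when any 1 of the 4 arrays was left out, with adjusted p of 0.0932 and 0.221 without replicates a and b of iPSC in 2i, and 0.230 and 0.0827 without replicates a and b of the day 32 cells.

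**Figure D2:**
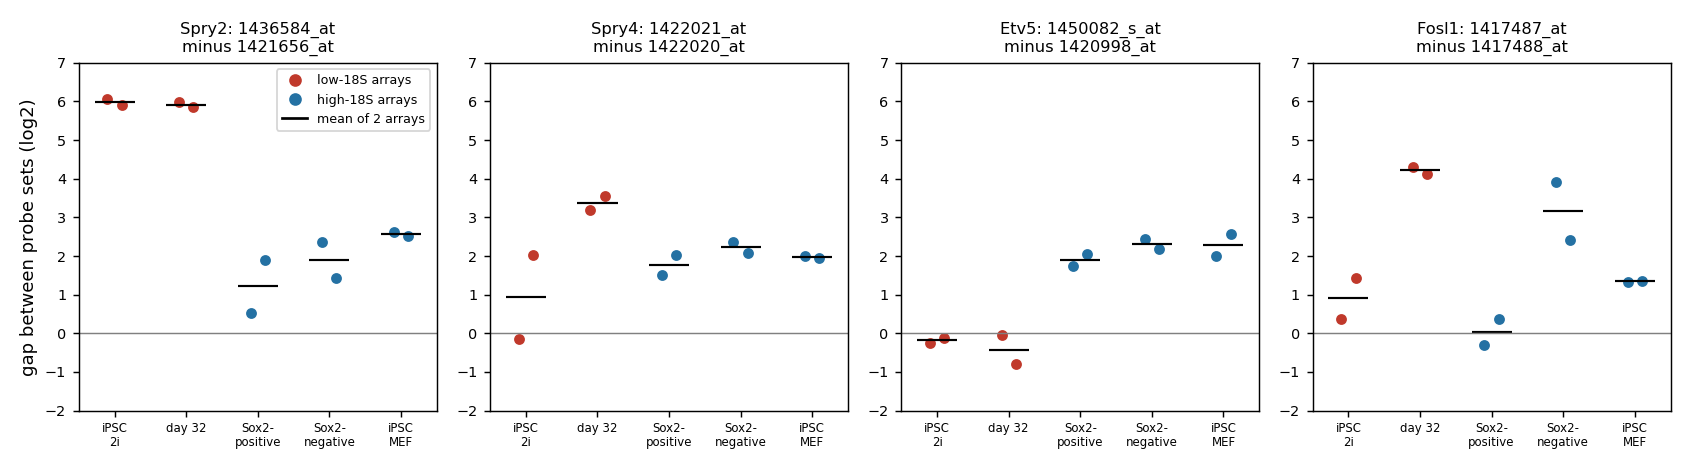
Difference between the log2 values of the 2 kept probe sets of the same gene (vertical axis) in each group (horizontal axis) for Spry2, Spry4, Etv5 and Fosl1. Points are arrays, red for low-18S and blue for high-18S, and lines are means of 2 arrays; the Spry2 gap is near 6 and the Etv5 gap below 0 on all 4 low-18S arrays.

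The distance between the 2 Etv5 probe sets changed with the class as well. It was -0.30 ± 0.34 on the low-18S arrays (SD, n = 4) and 2.17 ± 0.30 on the high-18S arrays (SD, n = 6). For Spry4 and Fosl1 the gaps overlapped between classes, at 2.16 ± 1.67 and 2.56 ± 1.96 on the low-18S arrays against 1.99 ± 0.27 and 1.51 ± 1.50 on the high-18S arrays. These gaps are not exact, since the dimmer Spry4 probe set was under 4 on all 4 low-18S arrays and the dimmer Fosl1 probe set on every array outside the Sox2-negative fraction. In the plot of these gaps the Fosl1 gap was wide in day 32 and Sox2-negative cells, where Fosl1 was high, and the Spry4 gap was wide in day 32 cells.

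Fosl1, the AP-1 subunit also known as FRA1, lay at 2 separate levels. Probe set 1417487_at read 2.97 and 3.99 in iPSC in 2i, against 7.68 and 7.08 in day 32 cells. It read 3.15 and 3.62 in the Sox2-positive fraction, 8.36 and 7.93 in the Sox2-negative fraction, and 3.62 and 4.18 in iPSC with MEF. Fosl1 was thus near or under the filter value in both iPSC groups and in the Sox2-positive fraction, and well above it in the other 4 arrays, which lie in different array classes. The difference between iPSC in 2i and day 32 cells was -3.90 (SE 0.40, adjusted p = 0.00218, limma), at least 10.4-fold lower when iPSC in 2i are set to 4. It remained called with any 1 of these 4 arrays left out (adjusted p 0.00447 to 0.0248).

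Against iPSC with MEF, the other group of iPSC, Fosl1 differed by -0.42 with a 95% interval of -1.33 to 0.49, and both groups of iPSC were near or under 4. Probe set 1417488_at was dimmer, at 2.59 and 2.56 in iPSC in 2i, 3.38 and 2.95 in day 32 cells, 3.44 and 3.26 in the Sox2-positive fraction, 4.45 and 5.52 in the Sox2-negative fraction, and 2.28 and 2.83 in iPSC with MEF. It exceeded 4 only in the Sox2-negative fraction.

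Phlda1 encodes a pleckstrin homology-like protein whose transcript rises after growth factor stimulation. It read 7.13 and 6.35 in iPSC in 2i, against 10.22 and 9.42 in day 32 cells. It read 6.89 and 8.05 in the Sox2-positive fraction, 9.84 and 10.48 in the Sox2-negative fraction, and 7.45 and 7.27 in iPSC with MEF. Like Fosl1, it was higher on all 4 arrays of day 32 and Sox2-negative cells than on the other 6, a pattern shown by 2.95% of all probe sets. The difference between iPSC in 2i and day 32 cells was -3.08 (SE 0.46, adjusted p = 0.00801, limma), and between iPSC in 2i and iPSC with MEF it was -0.62 (adjusted p = 0.266). The call against day 32 cells was lost without replicate b of iPSC in 2i (-2.69, adjusted p = 0.0603) and without replicate a of the day 32 cells (-2.68, adjusted p = 0.0851). Across the 10 arrays the Pearson correlation of Phlda1 with Fosl1 was 0.93, a description over arrays that share groups.

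Fibroblast and primitive endoderm markers were also lower in sum in iPSC in 2i than in day 32 cells. The summed linear level of 13 fibroblast markers was 430 to 835 in iPSC in 2i, 911 to 1132 in day 32 cells, 154 to 164 in the Sox2-positive fraction, 515 to 638 in the Sox2-negative fraction and 725 to 880 in iPSC with MEF. Dcn, Lum and Postn stayed under 4 in every group, and 6 of the 13 did so in iPSC in 2i, 5 in day 32 cells, 10 in the Sox2-positive fraction, 6 in the Sox2-negative fraction and 4 in iPSC with MEF. The summed level of 8 primitive endoderm markers was 571 to 1079 in iPSC in 2i, against 1825 to 2398 in day 32 cells. It was 446 to 913 in the Sox2-positive fraction, 702 to 969 in the Sox2-negative fraction and 161 to 225 in iPSC with MEF, and Gata6 exceeded 4 in the Sox2-positive fraction alone while Foxa2 did so in none. Of these lists, 1 of 9 kept fibroblast genes and 3 of 5 kept endoderm genes were called lower in iPSC in 2i than in day 32 cells, against 5.04% of all genes. In either list 0 were called higher. Between the fractions 0 genes of either list were called. All 9 kept fibroblast genes had lower means in the Sox2-positive fraction, with a median difference of -1.32 beside -0.02 over all genes, and the fibroblast sums lay apart. Of the kept endoderm genes 2 were higher and 3 lower there, and the endoderm sums overlapped. The part of these cells in the results was not tested. Of 6 blood markers, 5 stayed under 4 in every group.

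Across classes, 4 of the 9 genes were called between iPSC in 2i and iPSC with MEF, against 61.3% of all genes. Errfi1 was higher, a direction called for 53.0% of genes. Spry4, Dusp6 and Etv5 were lower, a direction called for 8.23% of genes. The median of the 9 genes was -0.42, beside 1.01 over all genes. Of the 13 probe sets, 8 lay lower on both iPSC 2i arrays than on both arrays of iPSC with MEF, as 19.6% of all probe sets did. After median centring of the arrays, which put the median difference over all probe sets at -0.19, against 0.93 as deposited, 7 of the 9 genes were called lower and 0 higher, where 26.8% of all genes were called lower. The 3 genes called lower as deposited were joined by Spry1, Etv4, Phlda1 and Fosl1, and Errfi1 was no longer called (0.62, adjusted p = 0.254, limma). Without replicate b of iPSC with MEF 2 genes were called.

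Net of the array class, 5 of the 9 genes were called, all lower, against 12.3% of all genes in either direction and 10.7% lower. These were Spry1 at -1.66 (adjusted p = 0.0298, limma), Spry2 at -1.43 (adjusted p = 0.0470), Dusp6 at -2.58 (adjusted p = 0.0276), Errfi1 at -3.71 (adjusted p = 0.0126) and Fosl1 at -2.04 (adjusted p = 0.0416). The dimmer Spry2 probe set, 1421656_at, was at -0.49 (adjusted p = 0.499). As the mean of its probe sets Spry2 was at -0.955 and not called (adjusted p = 0.0876). The dimmer Fosl1 probe set, 1417488_at, went the other way at 1.02 (adjusted p = 0.186). By the mean of its probe sets Fosl1 was at -0.51 and not called (adjusted p = 0.431). The values of Fosl1 and Spry1 are not exact, since Fosl1 was under 4 in iPSC in 2i and in the Sox2-positive fraction and Spry1 in the Sox2-negative fraction. The median of the 9 genes was -1.66, beside -0.47 over all genes. Low net medians were not particular to the members. Marker lists had -2.165 for fibroblast genes (3 of 9 called lower), -2.04 for pluripotency genes (2 of 10) and -1.88 for epithelial genes (4 of 8). Primitive endoderm genes had 0.115 (2 of 5 called lower), and the 1 kept blood gene had 0.40. For Spry1, Spry2, Errfi1 and Fosl1 the subtracted term was the larger part of the net value. This term is day 32 cells minus the mean of the fractions. For Errfi1 it was 5.44, against 1.74 for iPSC in 2i minus iPSC with MEF. For Spry2 1436584_at the terms were 1.94 and 0.52, and for Dusp6 they were of like size, 1.30 and -1.28. Errfi1 and Spry2 1436584_at thus had higher means in iPSC in 2i than in iPSC with MEF despite their lower net values.

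For Spry1 these terms were 1.48 and -0.18, and for Fosl1 they were 1.62 and -0.42. With the Sox2-positive fraction alone in that term 4 genes were called: Spry1 (-1.15, adjusted p = 0.0953, limma) and Spry2 (adjusted p = 0.0577) lost their calls, Phlda1 gained one (-2.97, adjusted p = 0.0266) and Fosl1 came to -4.42 (adjusted p = 0.00850). With the Sox2-negative fraction alone 3 were called, Spry2 lost its call (adjusted p = 0.0553), and Fosl1 came to 0.35 (adjusted p = 0.713) and Phlda1 to -0.28 (adjusted p = 0.796). With the replicate block Spry2 was no longer called (adjusted p = 0.0553). Leaving out 1 array left between 0 and 6 members called. None was called without replicate a of iPSC in 2i, without replicate a of iPSC with MEF or without its replicate b, and 1 was called, Errfi1, without either day 32 array. It was 3 without replicate b of iPSC in 2i, without replicate a of the Sox2-positive fraction and without replicate b of the Sox2-negative fraction.

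**Figure D3:**
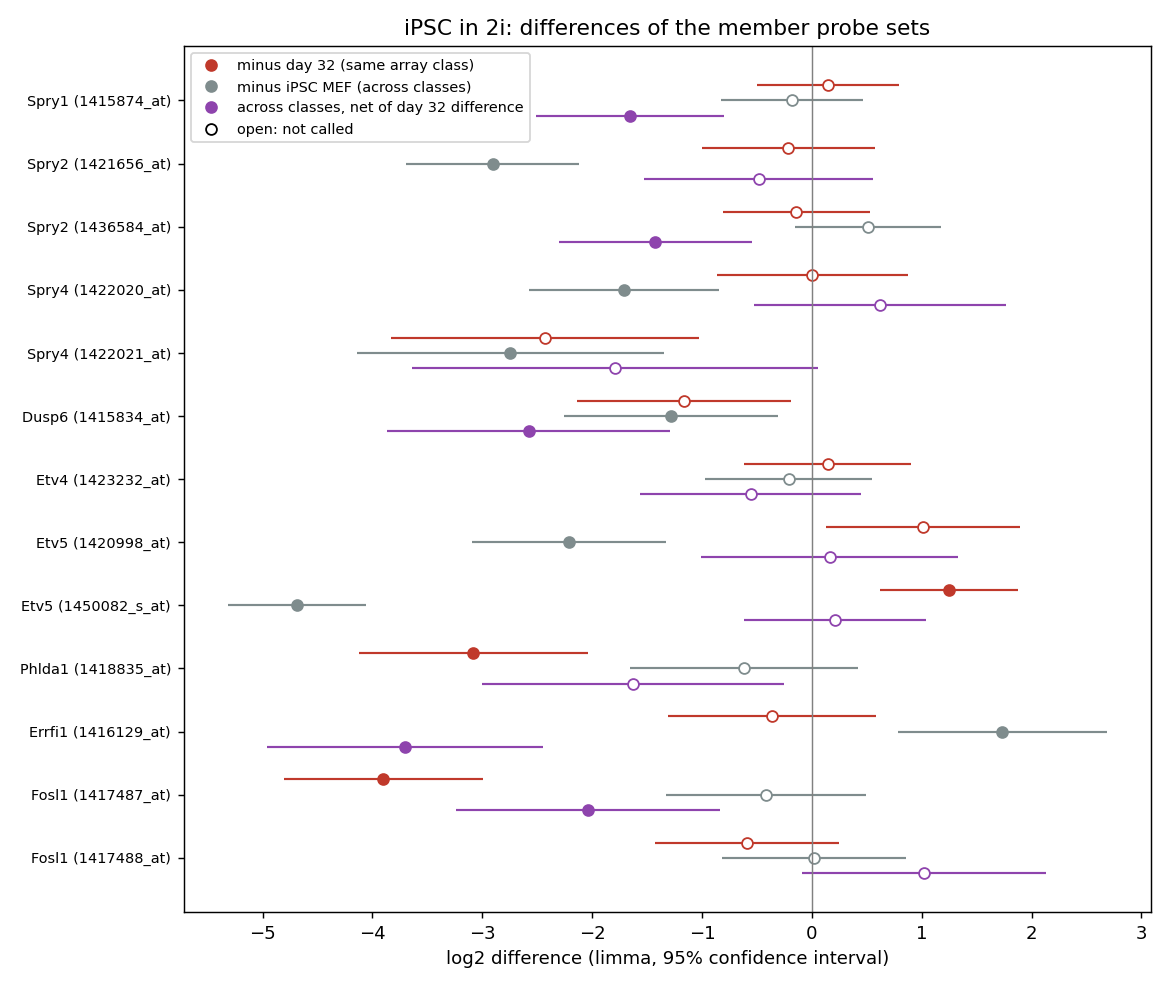
Log2 differences of iPSC in 2i (horizontal axis) for the 13 kept member probe sets (vertical axis), with 95% intervals from limma. Red is minus day 32 cells, grey is minus iPSC with MEF, purple is the difference from iPSC with MEF net of the day 32 difference across classes, and open circles were not called; the points of Spry4 1422021_at, Dusp6, Phlda1, Fosl1 1417487_at and Spry2 1421656_at lie below 0 in all 3 comparisons, whereas Etv5 is far below 0 only in grey.

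In the plot of these 3 differences, which share the iPSC 2i arrays, 5 of the 13 member probe sets lay below 0 in each. In the order of the day 32, iPSC with MEF and net differences, Spry4 1422021_at gave -2.43, -2.75 and -1.79 with 1 of 3 called, and Dusp6 gave -1.17, -1.28 and -2.58 with 2 of 3 called. Fosl1 1417487_at gave -3.90, -0.42 and -2.04 with 2 of 3 called, and Phlda1 gave -3.08, -0.62 and -1.63 with 1 of 3 called. Spry2 1421656_at gave -0.22, -2.91 and -0.49 with 1 of 3 called, whereas the brighter Spry2 probe set was at 0.52 against iPSC with MEF. Etv5 1450082_s_at gave 1.25, -4.69 and 0.21, which changed sign. Etv4 gave 0.15, -0.21 and -0.56, with none called.

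Both sorted fractions lie in the high-18S class, so their comparison does not cross classes. Of the 9 genes, 2 were called, both lower in the Sox2-positive fraction, against 12.1% of all genes in either direction and 5.44% lower. Fosl1 was lower at -4.76 (SE 0.40, adjusted p = 4.84e-04, limma), at least 17.7-fold lower when the Sox2-positive fraction is set to 4, and 1417488_at gave -1.64 (adjusted p = 0.0251), at least 1.98-fold lower on the same basis. Phlda1 was lower at -2.69 (SE 0.46, adjusted p = 0.00834). Both brightest probe sets stayed called with any 1 of these 4 arrays left out. The call of 1417488_at was lost without either Sox2-positive array (adjusted p = 0.0502 without replicate a and 0.103 without replicate b) and without replicate b of the Sox2-negative fraction (adjusted p = 0.0799).

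Markers of cell state differed widely between the same fractions. Of 10 pluripotency genes, 9 were called higher in the Sox2-positive fraction and 0 lower, with a median of 4.38 beside -0.02 over all genes. Their summed linear level was 14090 to 16571 in the Sox2-positive fraction, 2006 to 3436 in the Sox2-negative fraction and 21554 to 22621 in iPSC with MEF. Of 8 epithelial genes, 4 were called higher in the Sox2-positive fraction, among them the cadherin Cdh1 at 3.96 (adjusted p = 6.37e-04, limma), and 2 were called lower. The keratin Krt6b, singled out after its values were seen, averaged 1.93 in iPSC in 2i, 9.90 in day 32 cells, 2.72 in the Sox2-positive fraction, 9.73 in the Sox2-negative fraction and 1.40 in iPSC with MEF, so it was high in the same 2 groups as Fosl1 and Phlda1. The part of these markers in the member differences was not tested.

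Spry1 and Etv5 lay on the other side without passing the test. Spry1 was higher in the Sox2-positive arrays by 1.02 (adjusted p = 0.0518, limma), with both Sox2-negative arrays under 4, and Etv5 by 0.96 on 1450082_s_at (adjusted p = 0.0578) and 1.37 on 1420998_at (adjusted p = 0.0549). Without replicate b of the Sox2-negative fraction all 3 were called, and 4 members in place of 2. In the comparison of these fractions alone, with no other group in the model, 1 member, Fosl1, was called, and Phlda1 had an adjusted p of 0.0651.

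Dusp6 differed by 0.27 (95% interval -0.71 to 1.24), Spry2 1436584_at by 0.01 (95% interval -0.66 to 0.68) and Errfi1 by 0.46 (95% interval -0.49 to 1.41). Etv4 differed by 0.60 (95% interval -0.16 to 1.35) and Spry4 1422021_at by -1.11 (95% interval -2.50 to 0.29). The intervals of these 5 genes all include 0, and they allow differences of 1 log2 unit or more in Dusp6, Errfi1, Etv4 and Spry4. The median of the 9 genes was 0.27, beside -0.02 over all genes.

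Compared with iPSC with MEF, the Sox2-positive fraction had 4 of the 9 genes called, all lower, against 35.0% of all genes in either direction and 29.1% lower. Errfi1 was lower at -3.12 (SE 0.42, adjusted p = 0.00170, limma), Spry1 at -1.29 (adjusted p = 0.0101), Spry2 at -1.28 (adjusted p = 0.0116) and Dusp6 at -1.28 (adjusted p = 0.0477). Errfi1 remained called with any 1 of the 4 arrays left out. Spry1 lost its call without either array of iPSC with MEF, Spry2 without either of these or replicate a of the Sox2-positive fraction, and Dusp6 without any 1 of the 4. The number of called members was then 1 without either array of iPSC with MEF and 2 without replicate a of the Sox2-positive fraction. Spry4, Phlda1, Etv4 and Etv5 did not pass, and Fosl1 was near or under 4 on both sides. Etv5 was at -0.56 on 1450082_s_at (adjusted p = 0.151, limma) and -0.17 on 1420998_at (adjusted p = 0.764).

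The Sox2-negative fraction differed from iPSC with MEF in 8 of the 9 genes, against 47.1% of all genes. Phlda1 (2.80, adjusted p = 0.00162, limma) and Fosl1 (4.25, adjusted p = 2.12e-04) were higher, as 11.9% of genes were. Lower, as were 35.2% of genes, were Errfi1 at -3.58 (adjusted p = 4.09e-04), Spry1 at -2.31 (adjusted p = 5.02e-04, at least 2.62-fold), Dusp6 at -1.55 (adjusted p = 0.0176), Etv5 at -1.52 (adjusted p = 0.00265), Spry2 at -1.29 (adjusted p = 0.00732) and Etv4 at -1.0 (adjusted p = 0.0372). Spry4 was at 1.19 (adjusted p = 0.145). In the same comparison 9 of the 10 pluripotency genes were called lower, with a median of -5.28, and 2 of 8 epithelial genes were called higher and 5 lower. The median of the 9 genes was -1.29, beside -0.51 over all genes. Fosl1, Phlda1, Errfi1, Spry1 and Etv5 1450082_s_at remained called with any 1 of the 4 arrays left out. Etv4 lost its call without any 1 of them (adjusted p 0.0687 to 0.167), Dusp6 without either array of iPSC with MEF or replicate a of the Sox2-negative fraction (adjusted p 0.0781 to 0.0920), and Spry2 without replicate b of iPSC with MEF (adjusted p = 0.0519), when 5 members were called.

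These 2 comparisons share the arrays of iPSC with MEF, and the upper quartile of all probe sets was 6.87 to 6.91 on the sorted arrays, against 7.37 and 7.38 on those of iPSC with MEF. The Actb gap also set them apart, at 0.05 to 0.21 against 1.08 and 1.12. The part of these array differences in the member differences was not tested. After quantile normalization 2 members were called for the Sox2-positive fraction, against 19.1% of all genes, and 4 for the Sox2-negative fraction, against 35.7%. Spry2 and Dusp6 were no longer called in either comparison, at -0.44 and -0.50 for the Sox2-positive fraction and -0.45 and -0.75 for the Sox2-negative fraction, nor were Etv4 and Etv5 in the Sox2-negative fraction. Spry1, Spry2 1436584_at and Errfi1 were the 3 member probe sets on which all 4 iPSC arrays lay above all 4 sorted arrays, as 31.3% of all probe sets did.

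**Figure D4:**
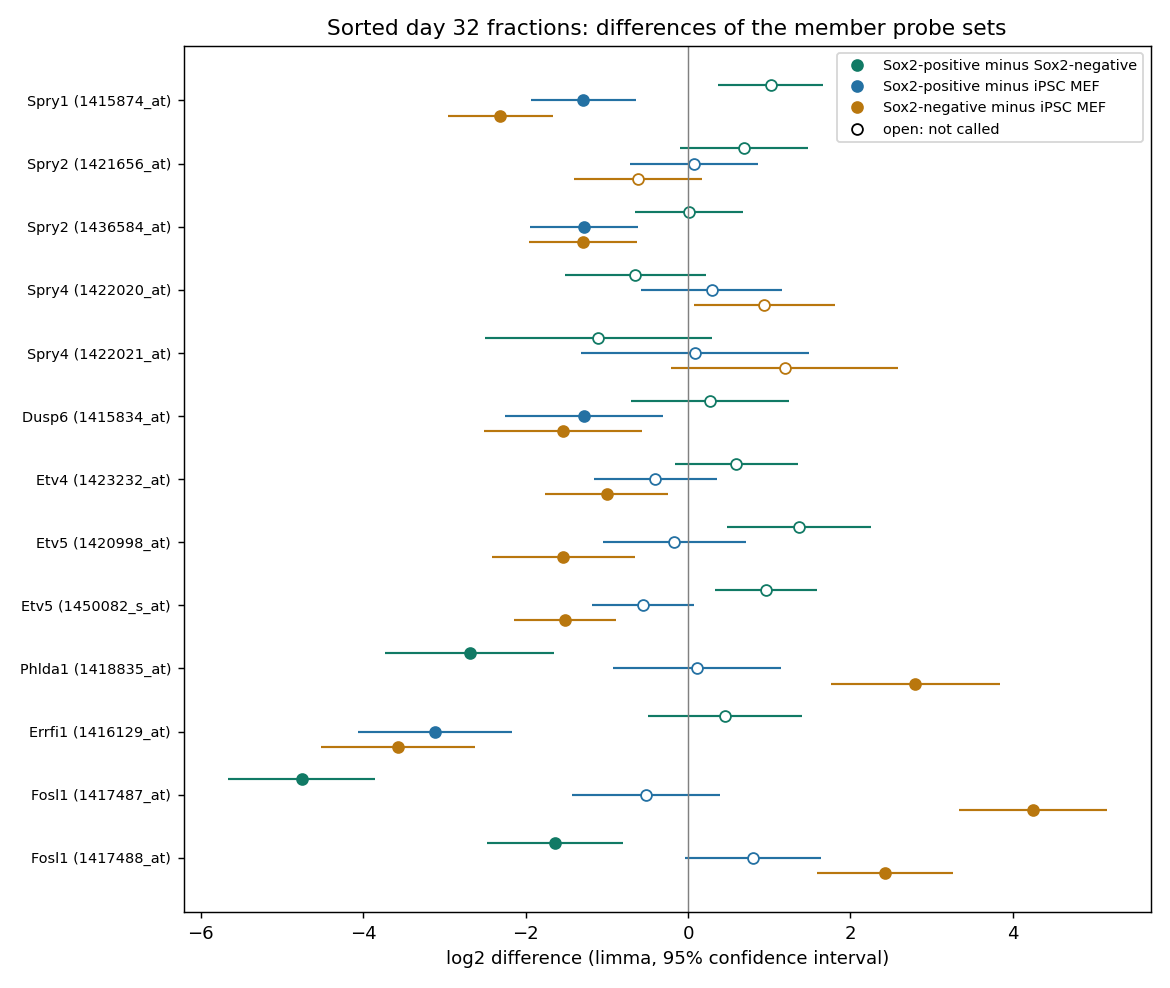
Log2 differences of the sorted day 32 fractions (horizontal axis) for the 13 kept member probe sets (vertical axis), with 95% intervals from limma. Green is Sox2-positive minus Sox2-negative, blue is Sox2-positive minus iPSC with MEF, ochre is Sox2-negative minus iPSC with MEF, and open circles were not called; Fosl1 and Phlda1 are called in both comparisons that involve the Sox2-negative fraction, lower in green and higher in ochre, and Errfi1 is lower in both fractions than in iPSC with MEF.

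The rest of the pathway was read from lists of genes that are no members. Of 19 kept other ERK output genes, 9 were called lower in iPSC in 2i than in day 32 cells and 0 higher. Over all genes 5.04% were called lower and 2.22% higher. The list median was -1.52, beside 0.11 over all genes. The 4 with the smallest p were the ETS factor Elk3 at -2.09 (adjusted p = 0.00385, limma), Egr2 at -6.13 (adjusted p = 0.00482), Fos at -4.08 (adjusted p = 0.00547) and the EGF receptor ligand Ereg at -4.03 (adjusted p = 0.00624). Egr2 and Fos are immediate-early transcription factors. In mean level Egr2 was at 2.75 in iPSC in 2i, against 8.87 in day 32 cells, and Ereg at 2.18 in iPSC in 2i, against 6.21 in day 32 cells, so both rest on values under 4 in 2i. With iPSC in 2i set to 4, Egr2 was at least 29.2-fold and Ereg at least 4.61-fold lower.

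Compared with iPSC with MEF the same list was divided, with 6 higher and 6 lower in iPSC in 2i, directions called for 53.0% and 8.23% of all genes, and a median of 0.36 beside 1.01 over all genes. Fosb at -4.41 (adjusted p = 8.21e-05, limma) and Fos at -4.48 (adjusted p = 1.92e-04) were lower, and the ephrin receptor Epha4 at 2.93 (adjusted p = 9.78e-04) and the cytokine Lif at 1.91 (adjusted p = 0.00137) were higher. Fosb was under 4 on both iPSC 2i arrays, and Epha4 and Lif on both arrays of iPSC with MEF. With those groups set to 4, Fosb was at least 6.92-fold lower, Epha4 at least 7.04-fold higher and Lif at least 3.04-fold higher. Fos averaged 5.93 in iPSC in 2i, against 10.01 in day 32 cells and 10.41 in iPSC with MEF, so it was lower in 2i both within its class and across classes. Net of the array class 5 of the 19 were called lower and 0 higher, where 10.7% of all genes were called lower. Among the 5 were Fos at -6.14 (adjusted p = 0.0102), Fosb at -3.95 (adjusted p = 0.0126) and Egr2 at -5.38 (adjusted p = 0.0221). The values of Fosb and Egr2 are not exact because both were under 4 in iPSC in 2i.

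Among 9 kept other feedback inhibitors, 0 were called between iPSC in 2i and day 32 cells, where 2 had an unadjusted p under 0.05. The smallest p were those of the Sprouty-related Spred1 at -1.18 (adjusted p = 0.0537, limma) and Spred2 at -0.73 (adjusted p = 0.131). Across classes 3 were higher and 3 lower, where 53.0% of all genes were called higher and 8.23% lower, with Dusp1, a phosphatase of MAP kinases, at -1.92 (adjusted p = 1.96e-04) and the RAS GTPase activators Rasa1 at 2.30 (adjusted p = 2.35e-04) and Nf1 at 1.80 (adjusted p = 6.41e-04) among them. Nf1 was under 4 on both arrays of iPSC with MEF, which makes it at least 2.64-fold higher. Net of the array class 4 were called lower and 0 higher, where 10.7% of all genes were called lower. The 4 were Dusp1 at -3.21 (adjusted p = 0.00718), Spred1 at -1.69 (adjusted p = 0.0319), Spred2 at -1.42 (adjusted p = 0.0337) and Il17rd at -2.22 (adjusted p = 0.0393). Il17rd, the membrane inhibitor of FGF signalling called SEF, was under 4 in day 32 cells and the Sox2-negative fraction.

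Among 16 kept genes of the receptor and RAS-ERK cascade, 1 was lower in iPSC in 2i than in day 32 cells, Egfr at -2.55 (adjusted p = 0.0455, limma), and 0 were higher. Over all genes 5.04% were called lower and 2.22% higher. Between the fractions 3 were higher and 3 lower in the Sox2-positive cells, where 12.1% of all genes were called in either direction. The ligand Fgf4 at 4.14 (adjusted p = 0.00238) and the adaptor Gab1 at 3.42 (adjusted p = 0.00240) were higher in the Sox2-positive fraction, as was the ERK-activated kinase Rps6ka3 at 1.49 (adjusted p = 0.0176), and the receptor Fgfr1 was lower at -1.27 (adjusted p = 0.0146). In the same comparison the feedback inhibitors Il17rd at 2.56 (adjusted p = 0.00775) and Dusp1 at 0.92 (adjusted p = 0.0397) were higher. Of the other output genes Epha4 was higher at 2.94 (adjusted p = 0.00811), and Emp1 at -1.73 (adjusted p = 0.0178), Elk3 at -1.17 (adjusted p = 0.0241) and Ereg at -2.36 (adjusted p = 0.0312) were lower. Il17rd and Epha4 were under 4 on both Sox2-negative arrays, which makes them at least 1.72-fold and 4.55-fold higher, and Ereg was under 4 on both Sox2-positive arrays, which makes it at least 1.06-fold lower.

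Canonical Wnt targets were also read, as genes of the GSK3 arm of 2i rather than of ERK. The part of GSK3 inhibition in their levels was not tested. Of 5 kept canonical Wnt targets, 3 were called higher in iPSC in 2i than in day 32 cells and 0 lower, where 2.22% of all genes were called higher. The 3 were Cdx1 at 2.85 (adjusted p = 0.00482, limma), Notum at 2.50 (adjusted p = 0.00991) and Axin2 at 2.46 (adjusted p = 0.0378). Cdx1 was under 4 on both day 32 arrays, which makes it at least 3.32-fold higher. Against iPSC with MEF 2 of the 5 were called higher and 1 lower, Sp5 at -2.58 (adjusted p = 1.86e-04). Over all genes 53.0% were called higher there and 8.23% lower. With the array class subtracted 0 were called higher and 1 lower, Sp5 at -3.76 (adjusted p = 0.00819), where 10.7% of all genes were called lower. Sp5 was under 4 in day 32 cells and both fractions. Of 9 kept naive pluripotency genes known to rise in 2i, all 9 had positive differences from day 32 cells and 1 was called, Tfcp2l1 at 1.82 (adjusted p = 0.0304). Against iPSC with MEF 5 of the 9 were called higher and 0 lower, with a median of 1.03 beside 1.01 over all genes. In the net comparison 0 were called higher and 3 lower, with a median of -2.0 beside -0.47 over all genes. Axin2 averaged 6.77 in iPSC in 2i and 6.73 in iPSC with MEF, with array class between them.

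**Figure D5:**
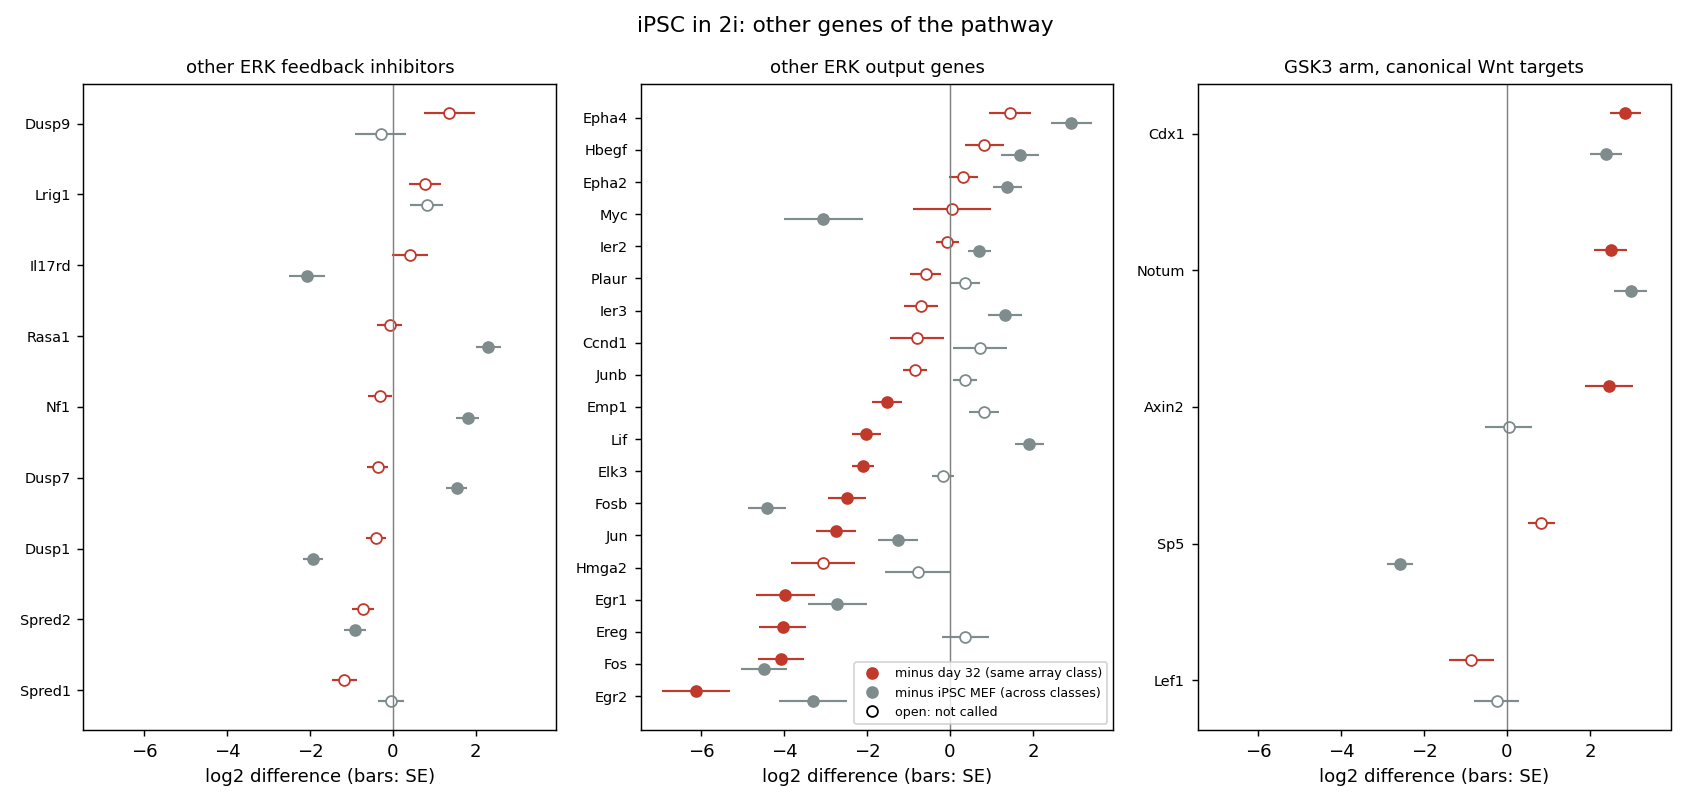
Log2 differences of iPSC in 2i (horizontal axis, bars are SE) for other ERK feedback inhibitors, other ERK output genes and canonical Wnt targets (vertical axis, 1 gene per line). Red is minus day 32 cells, within the low-18S class, grey is minus iPSC with MEF, across classes, and open circles were not called. In red, 9 of 19 output genes and 0 of 9 feedback inhibitors are called lower, against 5.04% of all genes.

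Genes with a profile most like 3 of the members were named by Pearson correlation over the 10 arrays, as a description in which all pairs share groups and array classes. For Spry4 these were Tmem109 at 0.95, Ccnd2 at 0.93 and Jag1 at 0.92. For Etv4 they were Lefty1 at 0.94, Mest at 0.93 and Crmp1 at 0.91. For Fosl1 they were Csf1, Tnfaip2 and Adamts1, each at 0.96. Among the members themselves Spry2 and Errfi1 reached 0.97, and Etv5 and Errfi1 ran opposite at -0.73.

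Ccnd2 read 2.50 and 5.24 in iPSC in 2i, against 8.96 and 8.04 in day 32 cells. It read 10.20 and 7.30 in the Sox2-positive fraction, 11.26 and 10.92 in the Sox2-negative fraction, and 7.21 and 7.12 in iPSC with MEF. As with Spry4 1422021_at, both iPSC 2i arrays lay below the 8 others and replicate a was the lower. Lefty1 read 5.69 and 8.38 in iPSC in 2i, and Etv4 and Spry4 were likewise lower in replicate a, by a difference of a minus b of -0.99 and -2.32. Dusp6 (-1.31) and Fosl1 (-1.02) went the same way, whereas Phlda1 (0.78) and Errfi1 (0.36) were higher in replicate a. The cause of the difference between these 2 arrays was not tested.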

How the data were processed

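The authors' deposited table holds log2 expression values, made with GCRMA and the affy package per the submitters' processing notes. Tool versions and a genome build are not given in the sources. Whether all arrays were normalized together is not stated. RNA was extracted with Trizol and amplified with 1 of 2 NuGEN kits, per the labels' protocols. Of 22690 probe sets, 64 were controls, 20380 had 1 gene symbol, 691 had several and 1555 had none. Only single symbols were used, and 20351 matched the supplied gene table with 0 renamed. No 2 arrays shared more than 1.49% identical values.

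All 10 arrays entered 1 linear model with a mean per group in limma 3.58.1 (R 4.3.3), with empirical Bayes variances (residual degrees of freedom 5, prior 4.24) and Benjamini-Hochberg adjustment over 14012 probe sets. The median SE of a difference was 0.33. An exact permutation test of 2 arrays against 2 cannot go below 0.333, so none is given. A fold against a group under 4 on both arrays is bounded at 4. The scripts were tested on simulated data. Alternatives were other filters, quantile normalization, median centring, gene-level values, smaller models, array weights, an intensity trend, a replicate block and omission of each array. Same-lettered arrays deviated together in 2 of 10 group pairs (r over 0.1, range -0.07 to 0.31). These were day 32 cells with the Sox2-positive fraction (0.31) and with the Sox2-negative fraction (0.20). The main model did not take the letters as pairs, and the replicate block did.

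Members and lists were chosen with earlier results of these data known. All members are named, with up to 4 called genes per list by p, or the 2 smallest p where none is called, and the 3 most alike genes for Spry4, Etv4 and Fosl1. The search for GGAA and the choice of the Dusp6 window were made after the values were seen. Promoters are RefSeq sequences of GRCm38.p6.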

Additional observations from a re-analysis of the deposited data

Results flagged for a closer look

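For 5 member probe sets the difference between iPSC in 2i and iPSC with MEF was itself different from the difference between day 32 cells and the mean of their fractions, by the test of that difference in limma. Both differences cross the array classes. Spry1 came to -1.66 (adjusted p = 0.0298), Spry2 1436584_at to -1.43 (adjusted p = 0.0470), Dusp6 to -2.58 (adjusted p = 0.0276), Errfi1 to -3.71 (adjusted p = 0.0126) and Fosl1 1417487_at to -2.04 (adjusted p = 0.0416). The second Fosl1 probe set, 1417488_at, was not among them and came to 1.02 (adjusted p = 0.186). Nor was the second Spry2 probe set, 1421656_at, at -0.49 (adjusted p = 0.499). None of the 5 was called without replicate a of iPSC in 2i or without either array of iPSC with MEF. With 2 arrays per group no search for single outlying arrays was made.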

How the results depend on the processing

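The limits are 2 arrays per group, array classes that coincide with groups, so that no class term fits beside them, and probe sets under 4, whose differences are compressed. The cause of the changes below was not tested. Over single member probe sets and settings that kept all arrays, 669 values kept their direction and their side of the threshold, 33 lost a call, 23 gained one and 14 changed sign.

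For iPSC in 2i minus iPSC with MEF, 8634 probe sets were called (7065 higher, 1569 lower), against 5646 after quantile normalization (2940 higher, 2706 lower) and 6661 after median centring (2445 higher, 4216 lower). The median difference was 0.93, 0.15 and -0.19 in the same order. Per gene, 5253 were called with the brightest probe set and 5321 with the mean. Members called were 4 (1 higher, 3 lower), against 7 with either scaling, all lower. Of all genes 8.23% were called lower as deposited, 15.2% after quantile normalization and 26.8% after centring. For iPSC in 2i minus day 32 cells, 884 probe sets were called, against 521 after quantile normalization, 302 with these groups alone and 1990 with array weights. Net of the array class, 1619 were called (383 higher, 1236 lower), against 510 (278 higher, 232 lower) after quantile normalization, 1245 (563 higher, 682 lower) after centring, 793 by gene means and 2831 with weights. Members called were 5, against 2 after quantile normalization and 3 after centring, by gene means and with the Sox2-negative fraction alone. Of all genes 12.3% were called net of class as deposited, 2.99% after quantile normalization and 8.33% after centring. Between the fractions 1578 were called, against 321 with these groups alone and 451 with weights. Members called were 2, against 4 by gene means and 1 with these groups alone.

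For the Sox2-positive fraction minus iPSC with MEF, 4600 were called (1034 higher, 3566 lower), against 2712 after quantile normalization (1264 higher, 1448 lower), 3835 after centring (1559 higher, 2276 lower) and 2814 by gene means, and 2 members after quantile normalization. For the Sox2-negative fraction, 6307 were called (1882 higher, 4425 lower), against 4087 and 4022 by brightest probe set and gene means, 4950 after quantile normalization (2320 higher, 2630 lower) and 5751 after centring (2462 higher, 3289 lower), and 4 members after quantile normalization.

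Signs changed after quantile normalization for Fosl1 1417488_at between iPSC in 2i and iPSC with MEF (-0.50), Spry2 1421656_at net of class (0.16) and, in the Sox2-positive fraction minus iPSC with MEF, Etv4 (0.091), Etv5 1420998_at (0.40) and Etv5 1450082_s_at (0.22). After centring they changed for Fosl1 1417488_at (-1.10) and Spry2 1436584_at (-0.60) between iPSC in 2i and iPSC with MEF, Etv5 1420998_at in the Sox2-positive fraction minus iPSC with MEF (0.11) and Spry4 1422020_at between iPSC in 2i and day 32 cells (-0.025). By gene means Spry2 came to -1.20 between iPSC in 2i and iPSC with MEF, and Fosl1 to 0.14 between the Sox2-positive fraction and iPSC with MEF. With the Sox2-negative fraction alone in the class term, Fosl1 1417487_at came to 0.35, Etv5 1420998_at to -0.52 and Etv5 1450082_s_at to -0.27.

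With 1 array left out, probe sets called ranged from 6588 to 6922 for iPSC in 2i minus iPSC with MEF (2 to 4 members), 116 to 826 for iPSC in 2i minus day 32 cells (1 to 2 members; 1 without replicate a of the day 32 cells), 0 to 2171 net of class (0 to 6 members), 649 to 1668 between the fractions (2 to 4), 1662 to 4117 for the Sox2-positive fraction minus iPSC with MEF (1 to 3) and 3739 to 5487 for the Sox2-negative fraction minus iPSC with MEF (5 to 7). With the replicate letter as a block, the paired fit called 1005 probe sets for iPSC in 2i minus day 32 cells and 1500 net of class, and it changed the calls of Spry4 1422021_at (adjusted p = 0.0480, limma) and Spry2 net of class (adjusted p = 0.0553) but of no other member.

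Differences that were not called also changed sign when 1 array was left out, with these lowest and highest values. For iPSC in 2i minus iPSC with MEF they were -0.71 to 0.29 for Etv4, -0.93 to 0.09 for Fosl1 1417487_at and -0.26 to 0.30 for 1417488_at. For iPSC in 2i minus day 32 cells they were -0.13 to 0.42 for Spry1, -0.075 to 0.085 for Spry4 1422020_at and -0.35 to 0.64 for Etv4, and net of class -0.25 to 0.57 for Etv5 1420998_at. Between the fractions they were -0.27 to 0.29 for Spry2 1436584_at, -1.30 to 0 for Spry4 1422020_at, -0.065 to 0.60 for Dusp6 and -0.20 to 1.12 for Errfi1. For the Sox2-positive fraction minus iPSC with MEF they were -0.38 to 0.53 for Spry2 1421656_at, -0.36 to 0.94 for Spry4 1422020_at, -0.32 to 0.49 for 1422021_at, -0.42 to 0.075 for Etv5 1420998_at and -0.47 to 0.69 for Phlda1. Called member differences kept their sign with any array left out.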
